A study of Homo sapiens with 6 samples.

Results

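Claudins and their partners in the tight junction were compared between BT20 cells carrying a short hairpin RNA against cytokeratin 5 (shCK5-22, hairpin pLK0-shCK5-425222, 3 libraries) and BT20 cells carrying a control hairpin (shControl, pLK0-shControl, 3 libraries). BT20 is an established human triple negative breast cancer line. Each arm is a single hairpin in the pLK0 vector, and the cells of both arms were untreated and grown with fetal bovine serum. The 9 genes described are the claudins CLDN1, CLDN3, CLDN4, CLDN7 and CLDN12, the MARVEL-domain proteins OCLN (occludin) and MARVELD2 (tricellulin), and the scaffolds TJP1 (ZO-1) and TJP3 (ZO-3). They were chosen by gene symbol, and all 9 were found among the 56478 rows of the count table that carry a symbol. All 9 also passed the filter on low counts, which left 18008 genes for the test.

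Tight junctions seal the space between neighbouring epithelial cells near their apical edge. Claudins and occludin are tetraspan membrane proteins whose extracellular loops meet those of the next cell, tricellulin seals the points where 3 cells meet, and the ZO proteins anchor the strands to actin from the cytoplasmic side. In breast cancer, low expression of claudins 3, 4 and 7 together with E-cadherin marks the claudin-low subtype, which has mesenchymal features. Zinc finger repressors of the SNAI and ZEB families bind the E-box hexamer CAGGTG, or CACCTG on the other strand, in promoters of junction genes.

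Promoter windows are shown first, since the hexamer these repressors bind was searched in them. RefSeq (GRCh38.p14) gave 15 windows for the 9 genes, each running from 250 bases before to 50 bases after a transcript start. The hexamer was searched as CAGGTG and CACCTG, which covers both strands, and is printed in capitals. It occurred in 6 of the 15 windows, where 20.6% of the 35116 windows in the RefSeq table hold it at least once. These 6 windows belong to 5 of the 9 genes, and the share of all genes with a match was not computed. One CLDN7 window held 5 matches, a number reached by 33 of all windows (0.094%). The windows below are those with the most matches of the genes with the largest fall (TJP3), the next largest (CLDN7) and of occludin, the window of CLDN1, which has none, and the most upstream of the 4 windows of TJP1, which moved the other way.
TJP3 chr19:3721487-3721786, plus strand: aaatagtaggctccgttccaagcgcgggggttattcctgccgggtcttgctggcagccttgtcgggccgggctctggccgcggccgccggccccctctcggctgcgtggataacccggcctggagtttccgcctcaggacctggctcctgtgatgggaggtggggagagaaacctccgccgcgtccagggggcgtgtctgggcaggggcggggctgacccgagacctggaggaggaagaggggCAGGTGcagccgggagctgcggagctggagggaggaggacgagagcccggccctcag
CLDN7 chr17:7262429-7262728, minus strand: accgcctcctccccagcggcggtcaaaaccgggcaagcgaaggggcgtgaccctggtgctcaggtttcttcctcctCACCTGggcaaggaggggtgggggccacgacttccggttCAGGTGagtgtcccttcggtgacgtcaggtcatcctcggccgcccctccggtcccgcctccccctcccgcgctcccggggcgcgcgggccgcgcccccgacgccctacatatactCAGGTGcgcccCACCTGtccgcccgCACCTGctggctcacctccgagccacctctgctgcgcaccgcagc
OCLN chr5:69492540-69492839, plus strand: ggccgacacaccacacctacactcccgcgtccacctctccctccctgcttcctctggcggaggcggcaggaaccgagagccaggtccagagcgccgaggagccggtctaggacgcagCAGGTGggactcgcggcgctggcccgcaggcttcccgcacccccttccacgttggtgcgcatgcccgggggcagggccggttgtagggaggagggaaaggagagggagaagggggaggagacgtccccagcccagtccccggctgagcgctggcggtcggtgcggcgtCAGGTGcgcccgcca
CLDN1 chr3:190322397-190322696, minus strand: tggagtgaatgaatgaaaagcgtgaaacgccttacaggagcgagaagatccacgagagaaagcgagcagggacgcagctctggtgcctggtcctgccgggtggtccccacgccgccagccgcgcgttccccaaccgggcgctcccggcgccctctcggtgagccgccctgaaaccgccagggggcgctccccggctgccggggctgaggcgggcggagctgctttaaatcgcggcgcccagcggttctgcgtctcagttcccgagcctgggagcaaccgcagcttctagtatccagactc
TJP1 chr15:29969000-29969299, minus strand: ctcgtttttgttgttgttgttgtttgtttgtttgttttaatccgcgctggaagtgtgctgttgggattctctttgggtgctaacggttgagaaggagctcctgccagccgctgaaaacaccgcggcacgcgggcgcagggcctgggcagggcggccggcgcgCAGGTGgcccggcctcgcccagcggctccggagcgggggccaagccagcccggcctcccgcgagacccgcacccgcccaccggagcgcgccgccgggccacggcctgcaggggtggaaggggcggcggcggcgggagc
Positions of the first base of each match, counted from the transcript start, were -174, -135, -20, -9 and 6 in CLDN7, -7 in TJP3, -133 and 36 in OCLN and -88 in TJP1. The more upstream OCLN window, which overlaps the one printed, had 1 match at -33. The other CLDN7 and TJP3 starts, both annotated upstream of the windows printed, held none, nor did the other 3 TJP1 windows. CLDN3 had 1 match at position 37, and CLDN1, CLDN4, CLDN12 and MARVELD2 had none. A second motif, that of the grainyhead-like factors (AACCNGTT, or AACNGGTT on the other strand), occurred in 0 of the 15 windows and in 1.73% of all windows. Matches are descriptions of letters, and no binding was measured.

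**Figure D1:**
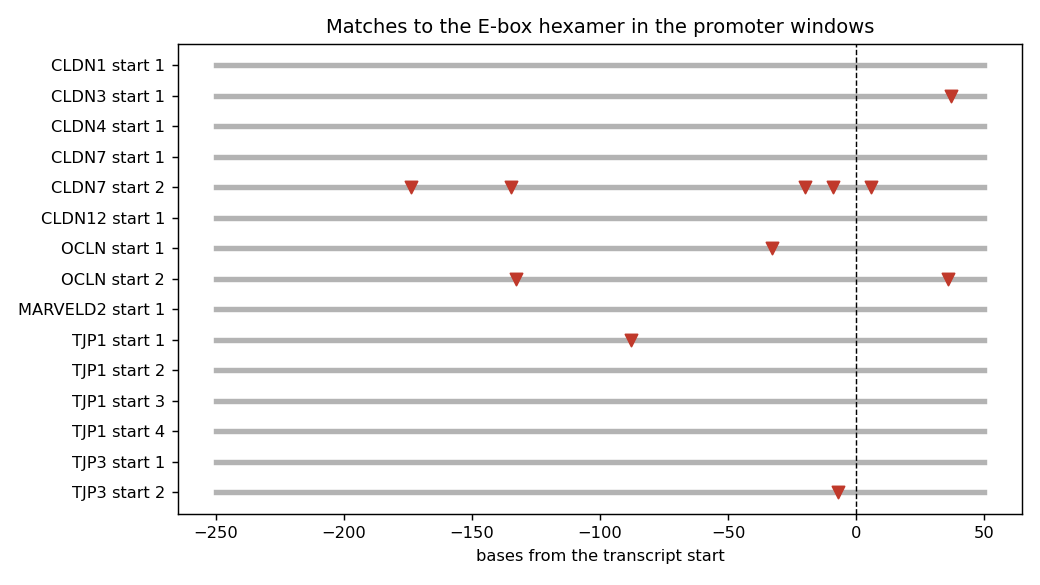
Positions of the E-box hexamer in the 15 promoter windows, with 1 row per annotated transcript start numbered from the most upstream; the horizontal axis gives bases from the start, grey lines are the windows and triangles the first base of each match. The second CLDN7 start carries 5 of the 11 matches, and 9 windows carry none.

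The libraries held 64855513, 61078311 and 53121206 counts for shCK5-22 replicates 1, 2 and 3, and 47703937, 65541734 and 62688434 counts for shControl replicates 1, 2 and 3. KRT5, the targeted gene, stood at 21.1, 22.7 and 24.1 CPM (counts per 1000000 counts of TMM-scaled library size) in shCK5-22, against 231, 247 and 244 CPM in shControl. The shCK5-22 replicate 1 library stood apart from the others of its group. Chi-square statistics per degree of freedom were 33.7 and 19.8 for the pairs with it, against 5.08 for the other shCK5-22 pair and 3.47 to 4.88 for shControl pairs. The 5 epithelial markers (EPCAM, KRT8, KRT18, CDH1 and KRT19) summed to 7195 to 7725 CPM in shCK5-22 libraries and 7828 to 8269 CPM in shControl libraries. Of these 5, KRT19 (1158 ± 60.8 CPM in shCK5-22 and 1792 ± 91.9 CPM in shControl, SD, n = 3 each) and CDH1 were called lower (edgeR, adjusted p under 0.05), and KRT8, KRT18 and EPCAM did not pass. Of 3 receptor genes that are low in triple negative tumours, PGR had 0 to 4 counts per library. ESR1 stood at 11.5 ± 0.567 CPM in shCK5-22 and 14.5 ± 0.836 CPM in shControl, and ERBB2 at 83.8 ± 3.35 CPM in shCK5-22 and 120.2 ± 1.97 CPM in shControl, both called lower. The 6 leukocyte markers summed to 2.82 to 3.45 CPM in shCK5-22 libraries and 1.71 to 2.48 CPM in shControl libraries, and 1 of them, ITGAM, was called higher (2.23 CPM in shCK5-22 and 0.928 CPM in shControl). The 6 endothelial markers, mostly CDH5, summed to 19.7 to 32.0 CPM in shCK5-22 and 24.1 to 31.8 CPM in shControl, and 1, PECAM1, was called lower (2.15 CPM in shCK5-22 and 5.02 CPM in shControl). The 6 fibroblast markers, mostly COL1A1, summed to 28.3 to 29.4 CPM in shCK5-22 and 31.8 to 32.8 CPM in shControl. COL1A1 was called lower, while PDGFRB (80, 46 and 66 counts in shCK5-22, against 0, 6 and 4 in shControl) and LUM (26, 16 and 24 counts in shCK5-22, against 4, 4 and 10 in shControl) were called higher. PDGFRB and LUM passed the filter on low counts only because of their shCK5-22 libraries. COL3A1, which was not tested, had 18, 10 and 8 counts in shCK5-22 and 2 in each shControl library. None of the markers was at 0 in all 6 libraries, and their part in the results was not tested.

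In shCK5-22 cells 5 of the 9 genes fell (TJP3, CLDN7, CLDN1, OCLN and CLDN4), 1 rose (TJP1) and 3 did not pass the test (CLDN3, CLDN12 and MARVELD2). The test was edgeR's quasi-likelihood test, with Benjamini-Hochberg adjustment over all genes tested and a threshold of 0.05, and every adjusted p below comes from it. In all, 34.2% of the genes tested passed, 16.8% lower and 17.4% higher in shCK5-22. The share was larger among better expressed genes: with a minimum of 1 CPM in 3 libraries, 5948 of 13636 genes passed. The median log2 fold change was -0.26 over the 9 genes and -0.01 over all genes tested. The same 5 genes lay below shControl in every shCK5-22 library and TJP1 above, where 45.1% of all genes tested had groups without overlap, 22.3% below and 22.8% above. Nothing in the labels states separate cultures, so the spread behind each p-value may be technical. Within bulk RNA, less RNA per cell and fewer cells expressing a gene cannot be told apart.

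**Figure D2:**
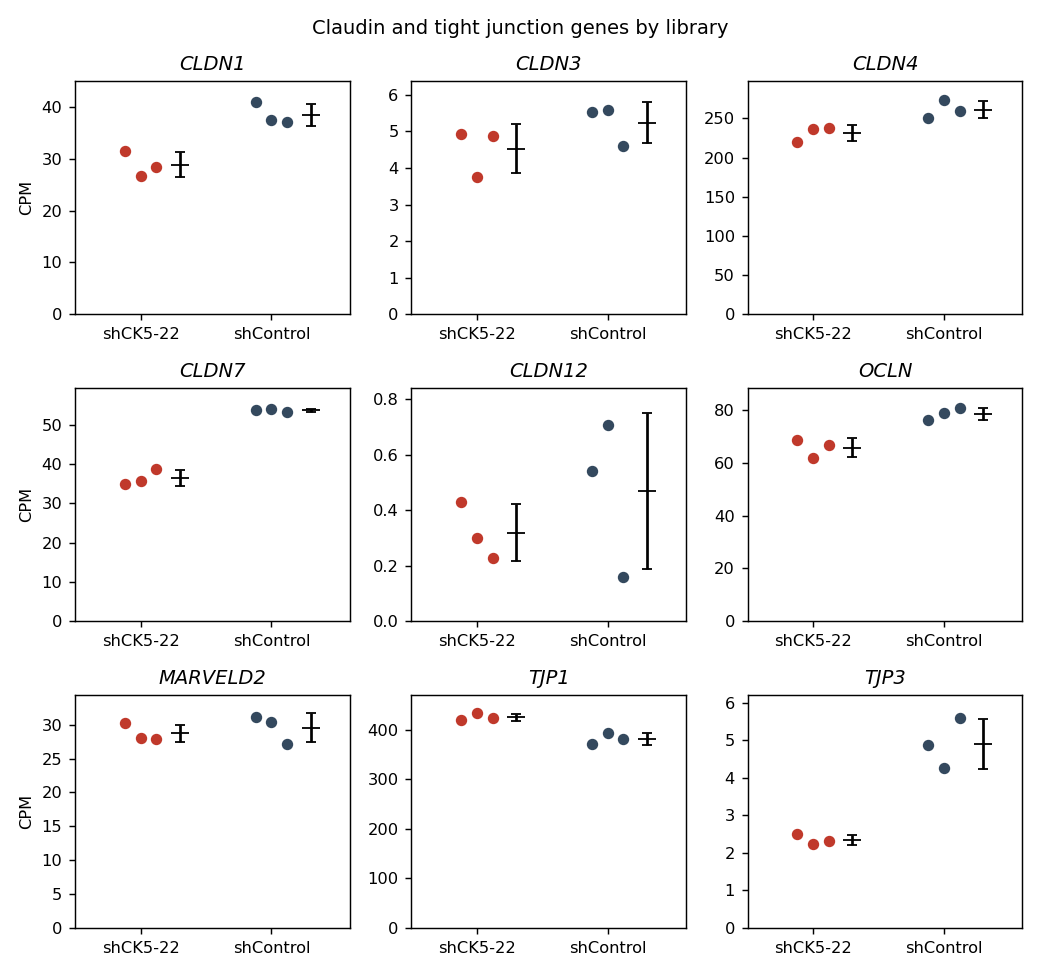
Level of each gene in CPM (vertical axes, from 0) in the 3 shCK5-22 libraries (red) and the 3 shControl libraries (dark), each point a library, with the mean and SD of the group beside the points. The groups are apart for CLDN1, CLDN4, CLDN7, OCLN, TJP1 and TJP3 and overlap for CLDN3, CLDN12 and MARVELD2.

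Among the claudins, CLDN7 had the largest fall of those that passed. CLDN7 (ENSG00000181885.18, chromosome 17, 7259903 to 7263983, minus strand, GRCh38) encodes a basolateral and tight junction claudin that binds EpCAM. Its level was 35.0, 35.7 and 38.7 CPM in shCK5-22 replicates 1, 2 and 3, against 53.8, 54.0 and 53.3 CPM in shControl replicates 1, 2 and 3. The shControl values lay close together, and every shCK5-22 library was below them. The mean was 36.5 ± 1.96 CPM in shCK5-22 and 53.7 ± 0.347 CPM in shControl (SD, n = 3 each), a log2 fold change of -0.56 (SE 0.0462, adjusted p = 4.68e-09). Exons of AC003688.1 and ELP5 cover 12.3% of the CLDN7 exon bases, and no source used here says how such reads were counted, so part of its count is uncertain.

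CLDN1 (ENSG00000163347.5, chromosome 3, 190305701 to 190322475, minus strand) encodes a barrier-forming claudin without which the skin barrier of mice fails. It stood at 31.5, 26.7 and 28.3 CPM in shCK5-22, against 41.0, 37.4 and 37.1 CPM in shControl. All 3 shCK5-22 libraries were below the lowest shControl library, with replicate 1 the highest of its group. The log2 fold change was -0.41 (SE 0.0594, adjusted p = 1.44e-05) and -0.48 without shCK5-22 replicate 1.

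CLDN4 (ENSG00000189143.9, chromosome 7, 73799542 to 73832693, plus strand) is the receptor of Clostridium perfringens enterotoxin together with CLDN3, and it was the most abundant claudin. Its level was 220.1, 236 and 238 CPM in shCK5-22, against 251, 273 and 259 CPM in shControl. The highest shCK5-22 library was below the lowest shControl library, and the fall was small: -0.18 on the log2 scale (SE 0.0355, adjusted p = 0.000607), or 11.5% in linear terms.

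CLDN3 (chromosome 7, 73768997 to 73770270, minus strand), the neighbour of CLDN4, stood at 4.94, 3.76 and 4.88 CPM in shCK5-22 and at 5.54, 5.60 and 4.60 CPM in shControl. The ranges overlapped. Its log2 fold change was -0.21 with a 95% interval of -0.47 to 0.05 (adjusted p = 0.224), an interval that holds both 0 and the CLDN4 value. CLDN3 rested on 225 to 365 counts per library and CLDN4 on 12074 to 17812, so the depth behind these values differs widely.

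CLDN12 (chromosome 7, 90383721 to 90513402, plus strand), a claudin without the PDZ-binding tail that links other claudins to ZO proteins, was barely detected. It had 28, 18 and 12 counts in shCK5-22 and 26, 46 and 10 counts in shControl. The shControl libraries alone spanned the whole range of shCK5-22. Its log2 fold change of -0.53 had a 95% interval of -1.49 to 0.43 (adjusted p = 0.417), so that a change of either direction was not detectable at this depth. Exons of GTPBP10, CDK14 and other genes cover 16.3% of its exon bases, and whether this moved its count was not tested.

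OCLN (ENSG00000197822.10, chromosome 5, 69492292 to 69558104, plus strand), the first integral tight junction protein identified, was lower in shCK5-22. It stood at 68.6, 61.7 and 66.9 CPM in shCK5-22, against 76.1, 78.9 and 80.7 CPM in shControl. All shCK5-22 libraries were below all shControl libraries, and the log2 fold change was -0.26 (SE 0.0422, adjusted p = 5.56e-05). Of the 50-base windows of its transcripts, 7.79% also occur in the partial copy OCLNP1, so its counts could be split. Whether and how far this moved the size of the change was not tested.

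MARVELD2 (chromosome 5, 69415065 to 69444330, plus strand) lies next to OCLN on the same strand, 47962 bases away, and encodes tricellulin, the related protein of tricellular contacts. It stood at 30.2, 28.1 and 27.9 CPM in shCK5-22 and at 31.1, 30.4 and 27.2 CPM in shControl. The groups overlapped, and the 95% interval of the log2 fold change ran from -0.16 to 0.08 around -0.04 (adjusted p = 0.645). The interval of OCLN ran from -0.35 to -0.17, and the difference between the fold changes of the 2 genes was not tested.

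The ZO scaffolds went opposite ways. TJP3 (ENSG00000105289.14, chromosome 19, 3708109 to 3750813, plus strand), which encodes the epithelial ZO protein ZO-3, had the largest change of the 9 genes. It stood at 2.50, 2.22 and 2.31 CPM in shCK5-22, against 4.87, 4.25 and 5.58 CPM in shControl. The counts behind them were 163, 133 and 122 in shCK5-22 and 234, 277 and 352 in shControl. Every shCK5-22 library was well below the lowest shControl library, and the shControl libraries spread more. The level was 2.09-fold lower (log2 fold change -1.06, SE 0.137, adjusted p = 2.87e-06). The next gene, APBA3, an amyloid precursor binding adaptor, lies 6 bases past the end of TJP3 and was higher in shCK5-22 (log2 fold change 0.34, adjusted p = 0.000143).

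TJP1 (ENSG00000104067.16, chromosome 15, 29699367 to 29968865, minus strand) encodes ZO-1, a scaffold of tight and nascent adherens junctions. It stood at 419, 433 and 423 CPM in shCK5-22, against 370.1, 393 and 381 CPM in shControl. All shCK5-22 libraries were above all shControl libraries, and the rise was small: 0.15 on the log2 scale (SE 0.0294, adjusted p = 0.000278), or 11.3%. For every 100 TJP1 counts a library held 0.553 ± 0.0417 TJP3 counts in shCK5-22 and 1.29 ± 0.195 in shControl (SD, n = 3 each).

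**Figure D3:**
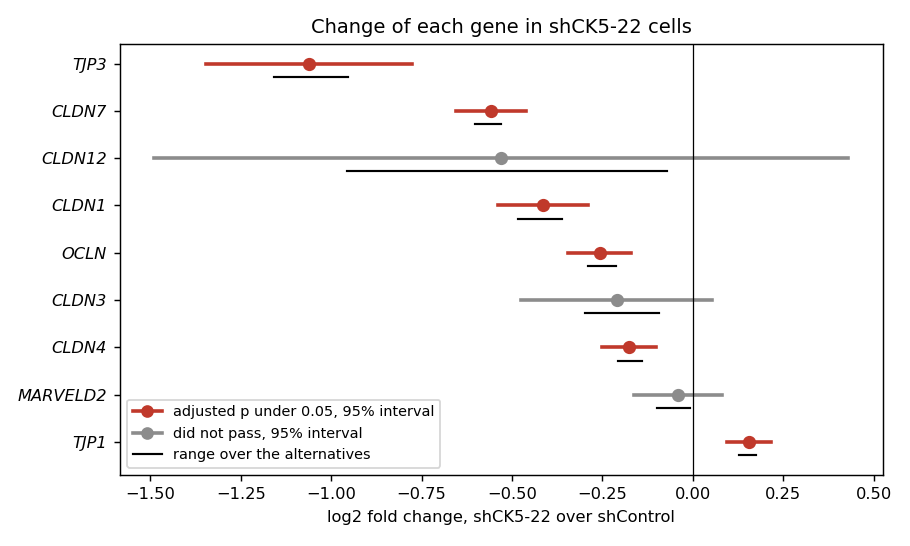
Log2 fold change of shCK5-22 over shControl (horizontal axis) for the 9 genes, with points and bars for the value and its 95% interval, and thin black lines for the range over the alternative analyses. TJP3 lies furthest from 0 at -1.06, TJP1 is the 1 gene above 0 at 0.15, and the interval of CLDN12 is the widest.

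Levels of different genes were compared per kilobase of exon. In all 6 libraries the order from high to low was CLDN4, TJP1, CLDN7, OCLN, CLDN1, MARVELD2, CLDN3, TJP3 and CLDN12. CLDN4 averaged 49.2 ± 2.08 CPM per kilobase in shCK5-22 and 55.6 ± 2.35 in shControl, while TJP1 averaged 37.7 ± 0.635 in shCK5-22 and 33.9 ± 1.03 in shControl (SD, n = 3 each). TJP3 averaged 0.556 ± 0.0333 in shCK5-22 and 1.16 ± 0.158 in shControl, far below TJP1. CLDN12 averaged 0.0473 ± 0.0152 in shCK5-22 and 0.0695 ± 0.0416 in shControl. Lengths are the union of all annotated exons, and the transcripts actually made in BT20 are not known, so distances between genes in this order are approximate.

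The other claudins give the setting of these changes. Summed over 24 claudin genes, the level was 87.0 ± 2.30 CPM per kilobase in shCK5-22 and 105 ± 2.37 in shControl. CLDN4 made up 56.6% ± 1.66 of that sum in shCK5-22 and 53.1% ± 1.18 in shControl, and CLDN7 16.8% ± 0.453 in shCK5-22 and 20.6% ± 0.380 in shControl (SD, n = 3 each). Of 20 further claudin and claudin-like genes, 9 passed the filter, and of these 2 fell and 3 rose. Of all genes tested, 16.8% fell and 17.4% rose. CLDN23 fell, at 8.40 ± 0.338 CPM in shCK5-22 and 10.7 ± 0.836 CPM in shControl (log2 fold change -0.34, adjusted p = 0.00288), as did the claudin-domain gene CLDND1 (-0.25, adjusted p = 0.000543). The 3 that rose were low. CLDN11, a claudin of myelin and testis, had 235, 182 and 168 counts in shCK5-22, against 82, 122 and 146 in shControl (log2 fold change 0.73, adjusted p = 0.000872). CLDN6, an embryonic claudin, had 26, 18 and 18 counts in shCK5-22, against 4, 7 and 8 in shControl (1.68, adjusted p = 0.00986). CLDN16, a renal claudin 66 bases from CLDN1, had 20, 26 and 27 counts in shCK5-22, against 14, 10 and 6 in shControl (1.25, adjusted p = 0.0443). CLDN6 and CLDN16 passed the filter on low counts only because of their shCK5-22 libraries, so the filter itself favoured a rise for both. The CLDN16 call was lost when shControl replicate 2 or 3 or shCK5-22 replicate 2 or 3 was left out and in 3 other alternatives, and its adjusted p ran between 0.0218 and 0.192 over all 14. The gut claudins CLDN2 and CLDN8 had 0 counts in every library, where a count of 3 corresponds to 0.046 to 0.0624 CPM.

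**Figure D4:**
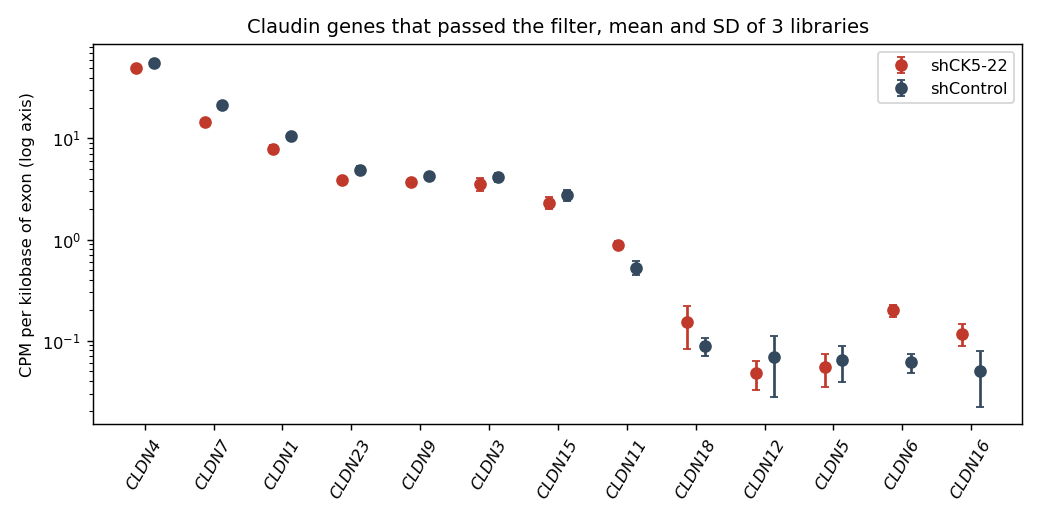
Level of the 13 numbered claudins that passed the filter, in CPM per kilobase of exon on a log axis, ordered by shControl level; points and bars are the mean and SD of 3 libraries, shCK5-22 in red and shControl dark. CLDN4, CLDN7 and CLDN1 lead in both groups, and the shCK5-22 points are the lower ones among the better expressed claudins down to CLDN15. Among these, CLDN9, CLDN3 and CLDN15 did not pass (edgeR adjusted p = 0.108, 0.224 and 0.0864), and the groups of CLDN3 and CLDN15 overlap.

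Of MARVELD3 and the angulin genes of tricellular contacts, tested as 4 genes, 2 fell and 1 rose, where 16.8% of all genes tested fell and 17.4% rose. LSR, the angulin that recruits tricellulin, fell to 227 ± 5.60 CPM in shCK5-22, against 254 ± 13.5 CPM in shControl (log2 fold change -0.16, adjusted p = 0.00123). MARVELD3, the third MARVEL protein of tight junctions, fell by 0.19 on the log2 scale (adjusted p = 0.00863), a call lost without shControl replicate 2 (adjusted p = 0.0664, the highest of 15 alternatives, against 0.00352 as the lowest). The related angulin gene ILDR2 rose, with 15.8, 16.7 and 14.6 CPM in shCK5-22 libraries, against 5.95, 6.99 and 6.41 CPM in shControl libraries (log2 fold change 1.28, adjusted p = 1.12e-10). Of 6 junctional adhesion molecules tested, 1 rose and 1 fell, beside the same shares over all genes. CXADR, the coxsackievirus and adenovirus receptor, rose to 10.1 ± 0.843 CPM in shCK5-22, against 6.27 ± 0.572 CPM in shControl (0.69, adjusted p = 7.39e-06), and CLMP, a relative of CXADR, fell by 0.32 (adjusted p = 8.38e-05). F11R, which encodes JAM-A, stood at 82.3 ± 3.05 CPM in shCK5-22 and 87.8 ± 2.19 CPM in shControl and did not pass (adjusted p = 0.0554).

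Of 14 plaque scaffolds tested besides TJP1 and TJP3, 2 fell, 2 rose and 10 did not pass. The shares over all genes tested were 16.8% lower and 17.4% higher. Cingulin (CGN), MAGI1, MAGI3, PATJ, AMOTL2, TJAP1 and SYMPK did not pass, with means between 37.3 CPM (MAGI3) and 196 CPM (AMOTL2) in shCK5-22 and between 37.7 CPM (MAGI3) and 201 CPM (AMOTL2) in shControl. MPDZ, a multi-PDZ scaffold that binds claudins, rose to 37.4 ± 1.36 CPM in shCK5-22, against 25.6 ± 2.58 CPM in shControl (0.55, adjusted p = 9.32e-07). AMOTL1, an angiomotin, fell to 186 ± 2.14 CPM in shCK5-22, against 234 ± 1.76 CPM in shControl (-0.33, adjusted p = 9.43e-09). AMOT fell by 0.43 and AFDN rose by 0.08, both near the threshold (adjusted p = 0.0314 for AMOT and 0.04996 for AFDN). The AFDN call was lost in 11 of 15 alternatives and the AMOT call in 5. AMOT lost it when any shControl library or shCK5-22 replicate 2 was left out (adjusted p up to 0.11). AFDN lost it with any 1 of the 6 libraries left out (adjusted p up to 0.277). Without shCK5-22 replicate 1, 4 plaque genes fell and 1 rose.

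Among 16 polarity genes tested 6 rose and 3 fell, around a median log2 fold change of 0.07. The shares over all genes tested were 17.4% and 16.8%. PARD3B, a paralog of the polarity scaffold PAR3, rose to 14.8 ± 0.940 CPM in shCK5-22, against 7.70 ± 0.551 CPM in shControl (log2 fold change 0.95, adjusted p = 8.19e-09). PARD6B, an adaptor of atypical protein kinase C, rose by 0.54 (adjusted p = 0.000122) and DLG1 by 0.29 (adjusted p = 5.11e-07). LLGL2, a basolateral polarity gene, fell to 43.1 ± 1.28 CPM in shCK5-22, against 61.8 ± 2.51 CPM in shControl (-0.52, adjusted p = 5.68e-09). LIN7C rose by 0.21 (adjusted p = 0.0351), and by 0.11 without shCK5-22 replicate 1. Its call was lost without any 1 of the 3 shControl libraries (adjusted p up to 0.111). PRKCI and SCRIB stood at 88.4 and 312 CPM in shCK5-22 and at 82.9 and 303 CPM in shControl and did not pass.

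Of 8 genes for surface partners of claudins and their proteases, 6 fell and 0 rose, with a median log2 fold change of -0.21. Over all genes tested 16.8% fell and 17.4% rose, and the share that passed was larger among better expressed genes. EPCAM, whose protein binds CLDN7, stood at 236 ± 1.88 CPM in shCK5-22 and 234 ± 1.16 CPM in shControl and did not pass (adjusted p = 0.746). ST14, the membrane protease matriptase that cleaves EpCAM, fell to 112 ± 3.66 CPM in shCK5-22, against 156 ± 2.74 CPM in shControl (-0.48, adjusted p = 2.40e-10). Its inhibitors fell, SPINT1 by 0.28 (adjusted p = 2.41e-07) and SPINT2 by 0.14 (adjusted p = 0.00258), and the E-cadherin gene CDH1 by 0.37 (adjusted p = 1.48e-09). The tetraspanin gene CD9 did not pass.

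Of 17 junction regulators tested, 9 rose and 2 fell, where 17.4% of all genes tested rose and 16.8% fell. The 2 that fell were ARHGEF11 (log2 fold change -0.20, adjusted p = 0.00207) and CTNNA1 (-0.19, adjusted p = 1.07e-05), both named after their values were seen. RAB3B, a small GTPase of vesicle traffic, rose to 5.07 ± 0.501 CPM in shCK5-22, against 1.98 ± 0.299 CPM in shControl (log2 fold change 1.36, adjusted p = 1.77e-07). MYLK, the kinase that contracts the perijunctional actomyosin ring, rose by 0.99 (adjusted p = 3.67e-12), the Rac exchange factor gene TIAM1 by 0.41 (adjusted p = 0.000348) and ARHGEF2, the junctional RhoA exchange factor GEF-H1, by 0.26 (adjusted p = 1.50e-05). WNK4, a kinase that phosphorylates claudins, rose by 0.36 (adjusted p = 0.0481), a call lost in 9 of 15 alternatives. These include the omission of shControl replicate 1 or 3 or of shCK5-22 replicate 2 or 3 (adjusted p up to 0.206). RAB13, ROCK1, ROCK2, CDC42, VASP and STRN, all above 20 CPM on average, did not pass.

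Among 16 genes of transcription and splicing regulators tested, 9 fell and 4 rose, where 16.8% of all genes tested fell and 17.4% rose. The 3 largest rises were those of E-box repressors: ZEB1 (log2 fold change 1.82, adjusted p = 2.95e-11), ZEB2 (1.81, adjusted p = 4.02e-09) and SNAI1 (0.82, adjusted p = 0.00166). Their levels were low, at 1.09 (ZEB1), 0.196 (ZEB2) and 1.62 (SNAI1) CPM per kilobase in shCK5-22. In shControl they were 0.307 (ZEB1), 0.0563 (ZEB2) and 0.920 (SNAI1) CPM per kilobase. SNAI2, which binds the same hexamer and had the highest level of the 4 per kilobase (20.6 CPM per kilobase in shCK5-22 and 22.4 in shControl), fell by 0.12 (adjusted p = 0.0129), a call lost in 3 alternatives (adjusted p up to 0.0552), namely at a threshold of 0.01, without shControl replicate 2 and without shCK5-22 replicate 3. Several factors of epithelial genes fell: ELF3 by 0.70, to 12.8 ± 0.528 CPM in shCK5-22, against 20.7 ± 0.640 CPM in shControl (adjusted p = 2.71e-08), OVOL1 by 0.54 (adjusted p = 7.86e-05), and the grainyhead-like factor GRHL2, an activator of Cldn4 in mouse, by 0.39 (adjusted p = 5.02e-09). Whether these factors acted on the claudin genes was not measured. KLF4, another epithelial factor, rose by 0.13 (adjusted p = 0.00872), a call lost without shCK5-22 replicate 3 (adjusted p = 0.0783), and GRHL3 stood at 2.05 ± 0.613 CPM in shCK5-22 and 2.41 ± 0.272 CPM in shControl without passing (adjusted p = 0.427). SNAI2, GRHL2, KLF4 and GRHL3 were named after their values were seen.

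**Figure D5:**
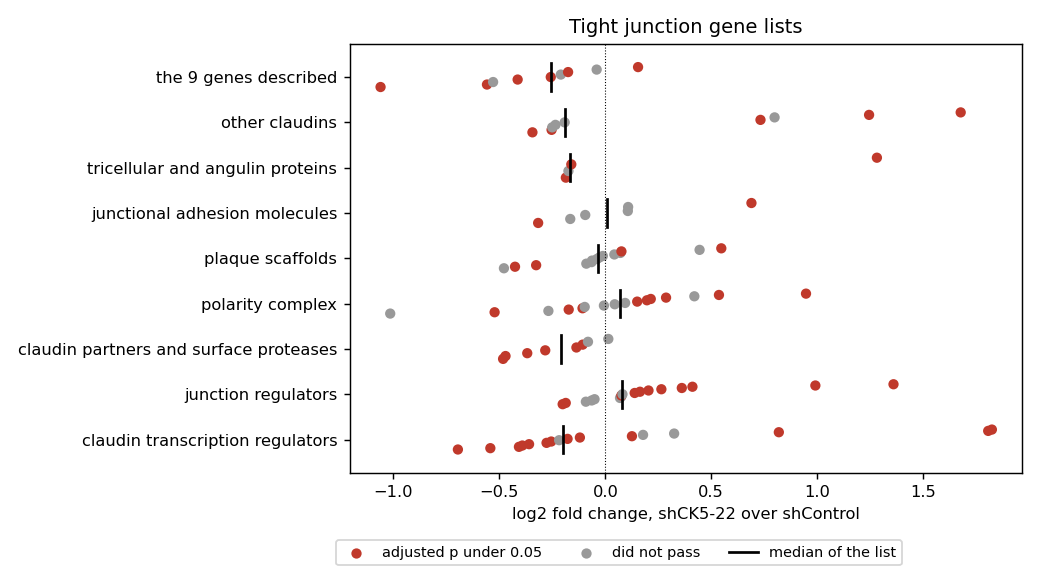
Log2 fold change of shCK5-22 over shControl (horizontal axis) for every tested gene of the 9 described and of 8 further lists, with 1 row per list; red points passed at an adjusted p under 0.05, grey points did not, and black bars are list medians. Partners and proteases lie left of 0 except EPCAM, with 6 of 8 lower, while junction regulators had 9 of 17 higher and 2 lower. Of all genes tested, 17.4% were higher and 16.8% lower.

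The profile of TJP3 across the 6 libraries was set beside those of the 10459 genes with a mean of at least 5 CPM, by Euclidean distance of centred log2 CPM. The 5 nearest were ACOT11, an acyl-CoA thioesterase, TFEB, a transcription factor of lysosomal genes, AZGP1, a secreted glycoprotein, PADI1, a peptidylarginine deiminase of epidermis, and P2RY6, a receptor for UDP, at distances of 0.136 to 0.214. ACOT11 stood at 5.00 ± 0.439 CPM in shCK5-22 and 10.4 ± 1.29 CPM in shControl. AZGP1 stood at 3.70 ± 0.304 CPM in shCK5-22 and 7.49 ± 0.779 CPM in shControl (SD, n = 3 each). The 6 libraries form 2 groups, and nothing on shared function or control is read from this likeness.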

How the data were processed

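RNA was sequenced from 6 BT20 libraries, 3 shCK5-22 and 3 shControl, grouped by sample title. The authors deposited 1 table of whole-number read counts per gene symbol. Per the submitters' processing notes the tools included cutadapt, STAR, SAMtools and Cufflinks with build GRCh38. The counting tool, its annotation, strand use and treatment of multiply mapped reads are not named in any source used here. Of 56505 rows, 27 were dates, not symbols (0.167% to 0.175% of a library), and were left out.

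Counts were tested with edgeR 4.0.16 (R 4.3.3), quasi-likelihood with robust estimation, TMM and filterByExpr, two-sided, on all 18008 genes that passed. CPM uses TMM-scaled library sizes over the genes tested. SDs are over 3 libraries, each SE is derived from the quasi-likelihood F and the log2 fold change, and intervals are at 95%. Floors cover counting error only, while the intervals of log2 fold changes come from the fit and also include the spread between libraries. Genes are named if they are among the 9 described, among the 5 largest changes of a further list past the threshold, or at 20 CPM or more without passing. Some genes that this names are counted in their lists and not reported here. For the polarity list the older symbol MPP5 was used. The 9 genes and the 8 further lists were chosen with earlier results of these data known. Gene models are those of GENCODE 29 (GRCh38), matched by symbol, and the 9 genes matched RefSeq promoters of GRCh38.p14. The fits were tested on simulated data. The 15 alternatives were 3 normalizations, 2 filters, a threshold of 0.01, DESeq2 1.42.0, limma-voom 3.58.1, a replicate block and leaving out each library. Lengths were also taken from the longest transcript.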

Additional observations from a re-analysis of the deposited data

How the results depend on the processing

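In every alternative, 5 of the 9 genes were lower and 1 higher, and none changed direction. Log2 fold changes over the alternatives ran from -1.16 to -0.95 for TJP3, -0.60 to -0.53 for CLDN7, -0.48 to -0.36 for CLDN1, -0.29 to -0.21 for OCLN, -0.21 to -0.14 for CLDN4 and 0.13 to 0.18 for TJP1, with a largest adjusted p of 0.00671. CLDN3, CLDN12 and MARVELD2 passed in none, and CLDN12 was not tested at a minimum of 1 CPM in 3 libraries. When 1 library was left out, the genes called higher in shCK5-22 numbered 2519 to 3098 and the genes called lower in shCK5-22 numbered 2391 to 3087. The median log2 fold change of all genes lay between -0.02 and 8.03e-05 over the alternatives.

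The labels do not state whether replicate numbers pair the libraries. Correlations of deviations were 0.0164, 0.0517 and -0.00678 for numbers 1, 2 and 3, and not every library correlated best with its own number. With the replicate block, genes called higher in shCK5-22 numbered 3456 and genes called lower in shCK5-22 numbered 3287, and the 9 genes kept 5 lower and 1 higher. The CLDN16 call was lost with the block (adjusted p = 0.053). Per kilobase of the longest transcript, the order of the 9 genes was the same, with CLDN4 at 55.6 CPM in shCK5-22 and 62.7 CPM in shControl and TJP1 at 53.4 CPM in shCK5-22 and 48.0 CPM in shControl. Depth limits CLDN12, with 10 to 46 counts per library.

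Counts in small lists moved by a gene or 2. Of the other claudins, 1 rose at a minimum of 1 CPM in 3 libraries. Of the junctional adhesion molecules, 2 fell with library size only, at that minimum, with the replicate block and without shCK5-22 replicate 2 (range 1 to 2 over left-out libraries). Of MARVELD3 and the angulin genes, 1 to 3 fell over left-out libraries, with 1 without shControl replicate 2. Plaque genes that fell numbered 1 at an adjusted p of 0.01 and 1 to 4 over left-out libraries, and 1 rose with library size only, without a filter, at the 1 CPM minimum, at 0.01, with DESeq2 and with each library left out. The counts of the other 4 lists stayed within 1.5 times.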

Other observations

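Genes next to the 9 described did not all move with them. The next tested protein-coding gene beyond CLDN3, away from CLDN4, is ABHD11, an alpha/beta hydrolase, which fell by 0.29 on the log2 scale (edgeR adjusted p = 0.000243), while LIMK1, on the far side of CLDN4, rose by 0.25 (adjusted p = 4.47e-07). P3H2, a prolyl hydroxylase on the other side of CLDN1 from CLDN16, rose by 0.24 (adjusted p = 0.000134). CDK14, whose exons overlap those of CLDN12, fell to 8.65 CPM in shCK5-22, against 13.4 CPM in shControl (log2 fold change -0.62, adjusted p = 3.51e-06). ELP5 and AC003688.1, which overlap CLDN7, were not among the genes tested under these symbols. The nearest tested protein-coding genes beside CLDN7, CTDNEP1 (7412 bases away) and YBX2 (24269 bases away), did not pass. GTF2H2C beside OCLN and PIP5K1C beside TJP3 did not pass either.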
